A study of Danio rerio with 1324 samples.

Results

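The genes described here carry newly made secretory proteins into the endoplasmic reticulum (ER) and on towards the Golgi. They were taken by symbol from the zebrafish genes with a read in any cell of the training counts (sec followed by a digit, ssr, spcs, srp followed by a digit, pdia, rpn1, rpn2, ddost, stt3, tmed and the cop coatomer genes), which gave 68 of 22948 genes. By role, 5 belong to the signal recognition particle (SRP), 6 to the Sec61 translocon, 4 to the translocon-associated protein complex (TRAP), 4 to signal peptidase, 5 to oligosaccharyltransferase (OST), 7 to the protein disulfide isomerases, 14 to COPII, 7 to COPI and 11 to the p24 cargo receptors. The other 5 match the symbol rule but were sorted into none of these roles, among them sec23ip and sec14l8, a lipid-transfer protein gene. The COPII group, sorted by symbol, takes in the sec22 genes, which are SNARE genes.

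A secretory protein such as preproinsulin is recognised by SRP while still on the ribosome, threaded through the Sec61 channel with the help of TRAP, and freed of its signal peptide by signal peptidase. Disulfide isomerases then pair its cysteines and OST adds N-linked sugars to glycoproteins, before COPII vesicles carry the cargo to the Golgi and COPI vesicles bring escaped residents back. In beta-cells, insulin is the main cargo of this route.

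Single beta-cells were sorted from Tg(ins:BB1.0L) zebrafish, in which the insulin promoter drives a red fluorescent protein, and full-length cDNA of each cell was sequenced. Every cell in the study carried this transgene, so each sort was set by the activity of the insulin promoter. The tables held 1014 of the 1324 labelled cells, which fell into 15 pools of fish of 1 age, cohort or diet. The pool, not the cell, was the sample in every comparison, and nothing in the labels told apart the fish within a pool.

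Of the normally fed pools, 3 were young: 1 mpf (months post-fertilization, the Juvenile stage of the study, 87 cells), a new batch of 1 mpf (30 cells) and 45 dpf (days post-fertilization, 74 cells). The study places the 45 dpf age between its Juvenile and Adolescent stages, and grouping it with 1 mpf was done here. The Adolescent pools were 3 mpf (over 100 cells), 4 mpf (88 cells), a new batch of 4 mpf (46 cells) and 6 mpf (90 cells). The Adult pools were 10 mpf (92 cells), 12 mpf (over 100 cells), 13 mpf (50 cells) and 14 mpf (60 cells). A 9 mpf pool (86 cells) lay between the stages, and 13 cells of 3 mpf came from a Fluidigm C1 chip instead of 96-well plates. Fish of 1 clutch were split at 3 mpf and kept on a diet for 1 month, until cells were taken at 4 mpf. They were fed 3 times a day (3TD, 35 cells) or on alternate days (intermittent feeding, IF, 43 cells). The food eaten was not controlled. The 1 mpf, 12 mpf and part of the 3 mpf cells were collected on 1 date, and the new 1 mpf and the 13 mpf cells shared a plate.

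Depth and identity of the cells varied between pools. The median number of reads per cell lay between 274026 and 785792 on plates and was 1162070.0 on the C1 chip. Insulin (ins) took a median of 54.6% to 77.8% of the TPM (transcript counts scaled by gene length and by the total of the cell), so ins was removed and the other genes of each cell were rescaled to a sum of 1000000 TPM. Every TPM value below is the mean of this rescaled TPM over the cells of a pool. The beta-cell markers pdx1, neurod1 and mnx1 (3 of 5 listed besides ins) together stood at 2240 to 11032 TPM in every pool, the 10 acinar genes found of 14 listed summed to at most 148.8 TPM outside the 9 mpf pool (781 TPM), and ptprc, the 1 of 5 blood and endothelial markers found, reached at most 3.46 TPM. RNA of the other islet hormones was present, with gcga, the glucagon gene of alpha-cells (1 of 3 listed), at 127.9 to 11900 TPM, and sst2 and hhex of delta-cells (2 of 3 listed) at 0 to 16901 TPM.

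The young pools gave the largest share of their RNA other than ins to the 68 genes. The share was 1.60% at 1 mpf, 1.66% in the new 1 mpf batch and 1.42% at 45 dpf. The Adolescent pools gave 1.03%, 0.984%, 1.06% and 0.835% (3, 4, new 4 and 6 mpf). The Adult pools gave 1.31%, 0.949%, 1.41% and 0.962% (10, 12, 13 and 14 mpf). All 4 Adolescent pools lay below all 3 young pools, and so did the Adult pools, though 13 mpf lay just under 45 dpf. Young pools averaged 1.56 ± 0.125% (SD, n = 3), Adolescent pools 0.977 ± 0.0995% (SD, n = 4) and Adult pools 1.16 ± 0.236% (SD, n = 4).

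**Figure D1:**
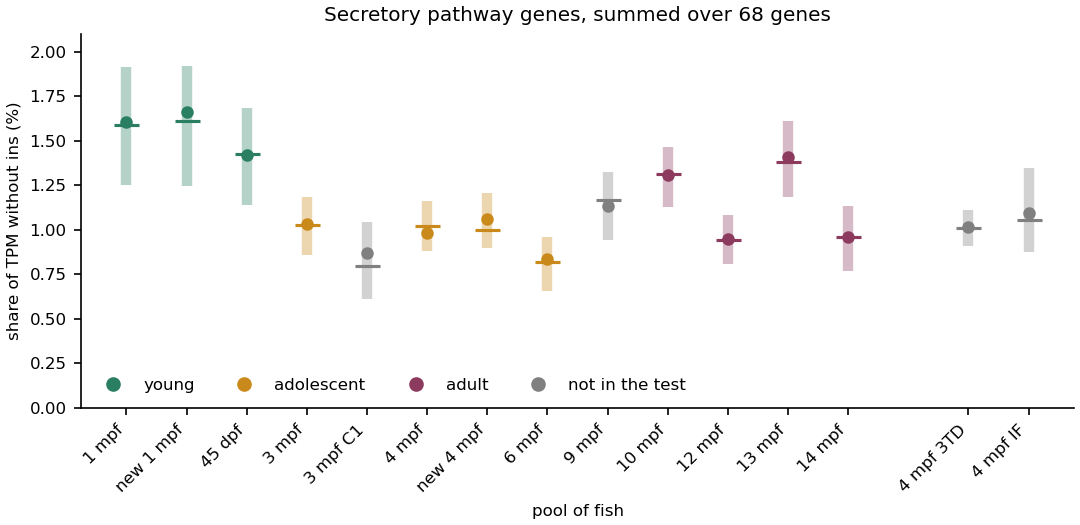
Share of the TPM without ins taken by the 68 genes (percent, vertical axis) in each of the 15 pools, which stand along the horizontal axis by age with the diets last, where points are pool means, dashes are medians over cells and bars span the middle 50% of cells. The 3 young pools lie between 1.42% and 1.66%, the 4 Adolescent pools between 0.835% and 1.06%, and the Adult pools spread from 0.949% to 1.41%.

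The other pools lay near the Adolescent range. The share was 1.13% at 9 mpf and 0.872% on the C1 chip, and the diet pools gave 1.01% in 3TD and 1.09% in IF. The 2 batches that make up 3 mpf gave 1.01% and 1.04%, and those of 6 mpf gave 0.785% and 0.901%. Gene by gene, these batches differed by a median of 0.48 at 3 mpf and 0.34 at 6 mpf on the log2(TPM + 1) scale, without regard to sign. Over all genes the medians were 0.90 and 0.76.

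Cells within a pool varied widely around these means. The sum of the 68 genes over single cells had its middle 50% between 12536 and 19159 TPM at 1 mpf, against 8074 to 10838 TPM at 12 mpf and 11819 to 16128 TPM at 13 mpf. Within pools, the Spearman correlation over cells between this sum and the share of TPM taken by ins ran from -0.37 in the new 4 mpf batch (46 cells) to 0.59 at 45 dpf (74 cells). It had no common sign, and since each cell gives both values from 1 library it is a description only.

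Young pools also differed from the rest in measures outside these genes. Cells of the 3 young pools showed a median of 3488 to 4958 genes, against 2762 to 3654 in Adolescent pools and 2384 to 2726 in Adult pools. The gcga level was 2832 to 4679 TPM in young pools, 434 to 11900 TPM in Adolescent pools and 283 to 2988 TPM in Adult pools, and the sum of sst2 and hhex was 6402 to 15956 TPM, 1.93 to 16901 TPM and 52.9 to 5104 TPM in the same order. Of the cells with over 10000 TPM of gcga and sst2 summed, 21 of 51 came from the 3 young pools. With these 51 cells left out, the share was 1.49% to 1.78% in young pools, 0.842% to 1.06% in Adolescent pools and 0.950% to 1.41% in Adult pools, a gap no smaller than with them.

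Summed by role, OST, signal peptidase and the p24 receptors kept all Adolescent and Adult pools below the young ones. The 5 OST genes summed to 1826, 1916 and 1561 TPM in the young pools (1 mpf, new 1 mpf and 45 dpf). They summed to 1075, 1153, 1059 and 1093 TPM in the Adolescent pools (3, 4, new 4 and 6 mpf) and to 1162, 1158, 1291 and 1118 TPM in the Adult pools (10, 12, 13 and 14 mpf). The lowest young pool, 45 dpf, lay above all of these, the highest of which was 13 mpf. The 4 mpf IF diet pool, outside the stage groups, lay above 45 dpf at 1744 TPM.

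The 4 TRAP genes summed to 2599, 2614 and 2793 TPM in the young pools, and to 1474, 1167, 1553 and 1057 TPM in the Adolescent pools. The Adult pools gave 2392, 1131, 2607 and 1480.1 TPM, so that 13 mpf lay among the young pools and 10 mpf just below them, while 12 and 14 mpf lay in the Adolescent range. The translocon averaged 1106 ± 115.6 TPM in young, 668 ± 158.4 TPM in Adolescent and 949 ± 272 TPM in Adult pools (SD, n = 3, 4 and 4). COPI averaged 1660 ± 267 TPM, 1012 ± 115.9 TPM and 1403 ± 280.2 TPM in the same order. Like TRAP, both roles had their highest Adult sums at 10 and 13 mpf. The Adult means of the translocon and COPI lay nearer to the young than to the Adolescent mean. The p24 genes instead stayed low in the Adult pools, at 1964 ± 403 TPM, beside 2981 ± 304 TPM in young and 1932 ± 310 TPM in Adolescent pools.

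**Figure D2:**
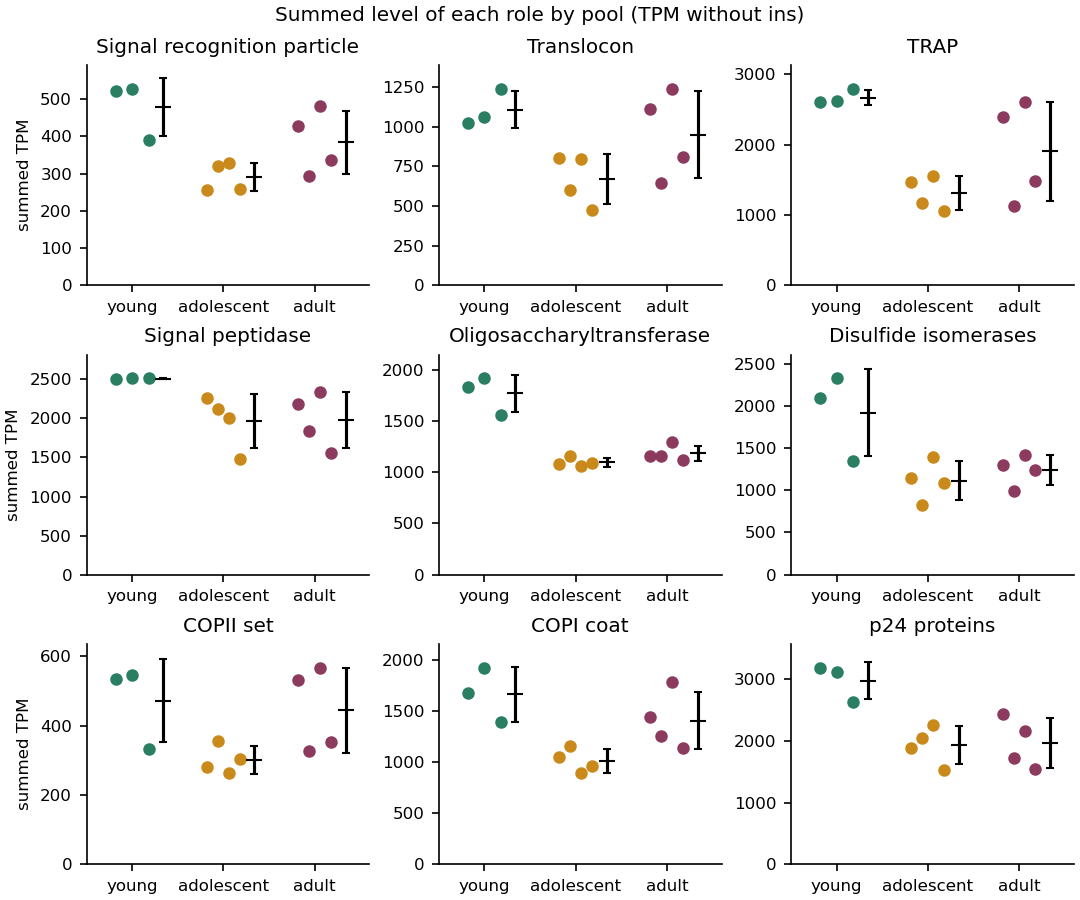
Summed TPM without ins of the genes of each role (vertical axes) in young, Adolescent and Adult pools, with 1 point per pool and a bar beside them for the mean ± SD (n = 3, 4 and 4). OST and p24 sums stay low in Adult pools, while TRAP, translocon and COPI sums of the 10 mpf and 13 mpf pools lie near the young ones.

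Single genes were compared between stages with limma on log2(TPM + 1) of the 11 normally fed plate pools, a gene being tested when it reached 5 TPM in 3 pools. This left 61 of the 68 genes, and 10536 genes in all. The remaining 7 were too low to be tested: sec16b, pdia2, the sec14l1 copy ENSDARG00000101792, sec14l7, the tmed1 copy ENSDARG00000031325, tmed5 and tmed6. The Adult and the Adolescent contrasts against the young pools share those 3 pools, so their results are not independent of each other.

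None of the 61 genes passed limma with Benjamini-Hochberg adjustment in adult against young pools, where 0.171% of all genes tested did (0.0949% higher and 0.0759% lower). At an unadjusted p under 0.05, limma gave 10 of the 61 lower and 1 higher, beside 6.49% of all genes lower. The count test of edgeR on reads recovered from the TPM also called none of the 65 genes it tested. The fitted difference was below 0 for 50 of the 61 genes, or 82%, against 54.6% of all genes. Its median was -0.41 over the 61 genes and -0.07 over all genes on the log2(TPM + 1) scale.

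Adolescent against young pools gave the wider separation. Again none of the 61 genes passed the adjusted limma test, and neither did any other gene (0%). At an unadjusted p under 0.05, 27 of the 61 were lower and 0 higher, beside 6.81% of all genes lower, and edgeR on the recovered reads called 0 of 65. The median difference was -0.70 on the log2(TPM + 1) scale, with 51 genes below 0, against a median of 0.05 and 47.4% of all genes. In 28 of the 61 genes every Adolescent pool lay below every young pool, as in 7.70% of all genes tested, and in 1, tmed8, every Adolescent pool lay above (9.31% of all genes).

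The same count for adult against young pools was 13 of 61 lower, beside 5.29% of all genes, and 0 higher, beside 5.4%. Leaving out a pool can only keep or raise this count, which was 24 without 13 mpf (8.13% of all genes) and 25 without 45 dpf (17.9%). With pool means scaled by TMM factors it was 11 (6.71% of all genes). With cells under 100000 reads left out it was 10 (4.97%). With the 51 cells rich in gcga and sst2 left out, it was 12 of 61 for adult against young pools (5.59% of all genes). For adolescent against young pools it was then 28 of 61 (7.87% of all genes). The highest of the 11 pools was a young one for 31 of the 61 genes (50.8%, against 19.8% of all genes), and the lowest was an Adolescent one for 39 (63.9%, against 31.6%).

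**Figure D3:**
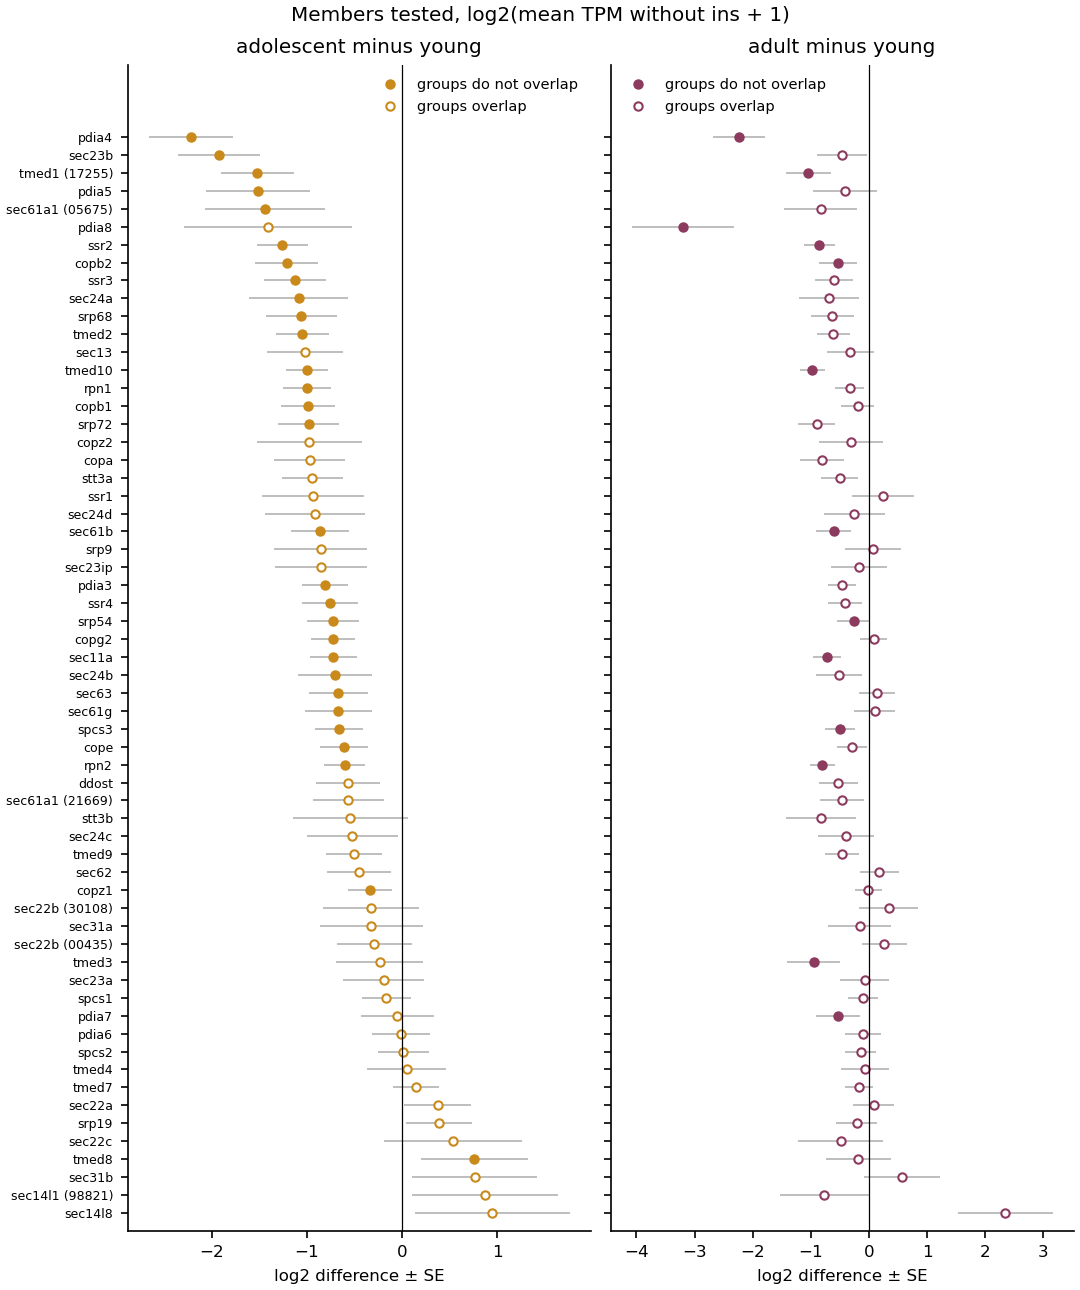
Difference in log2(TPM + 1) between stages for each of the 61 genes tested, which run down the page from the lowest adolescent value to the highest, with adolescent minus young pools on the left and adult minus young pools on the right, lines for the SE and filled points where the groups do not overlap. Of the 61 genes, 50 lie below 0 in adult minus young and 51 in adolescent minus young pools, with pdia8 farthest below in the first of these and pdia4 in the second.

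The Adult pools stood between the other stages for many genes. In adult against adolescent pools none of the 61 genes and no other gene passed limma after adjustment (0%), and edgeR on the recovered reads called 0 of 65. At an unadjusted p under 0.05, 9 of the 61 were higher and 2 lower in Adult pools, beside 11.6% of all genes in either direction. The median difference was 0.31 over the 61 genes and -0.10 over all genes on the log2(TPM + 1) scale, with 17 of 61 below 0 beside 56.3%. In 5 genes (sec63, sec23b, copg2, copb1 and rpn1) every Adult pool lay above every Adolescent pool, as in 2.41% of all genes, and in 0 below, as in 2.39%.

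Among the disulfide isomerases, which catalyse the making and reshuffling of disulfide bonds in the ER lumen, pdia4 had the smallest adjusted p of the 68 genes. It stood at 349.6 TPM at 1 mpf, 469.7 TPM in the new 1 mpf batch and 140.4 TPM at 45 dpf. The Adolescent pools held 63, 39, 116.7 and 46.2 TPM (3, 4, new 4 and 6 mpf), and the Adult pools 71.1, 47.9, 76.4 and 48.2 TPM (10, 12, 13 and 14 mpf). Every later pool lay below 45 dpf, and the new 4 mpf batch was the closest to it.

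The difference for pdia4 was -2.24 (SE 0.44, adjusted p = 0.0633, limma) in adult against young pools and -2.22 (SE 0.44, adjusted p = 0.0995, limma) in adolescent against young pools. Both missed the threshold of 0.05. With the shared date and the shared plate as blocks of 1 young and 1 adult pool each, an alternative added after seeing the data with 1 residual degree of freedom, pdia4 was the 1 of the 61 genes called, beside 0.38% of all genes called lower, at -2.72 (adjusted p = 0.0463, limma). The adult difference also passed the threshold for pdia4 with a pseudocount of 10, with ins kept, with TMM scaling, with the 51 cells left out, without 45 dpf and without the new 4 mpf batch. It did not pass with a pseudocount of 0.1, without the filter, with cells under 100000 reads left out or with the training pools only. Nor did it pass with 9 mpf and C1 added, with the batches of 3 and 6 mpf apart, or with edgeR on recovered reads. Leaving out any other single pool did not make it pass either. Leaving out 1 pool at a time kept the adult difference between -2.75 and -1.88.

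A further gene of this family, pdia8, was lower in level and more uneven. Its level was 56.6, 75.3 and 21.2 TPM in the young pools, and 17.7, 4.87, 56.9 and 13.2 TPM in the Adolescent pools. The Adult pools held 13.6, 4.04, 0 and 7.55 TPM, with no read in any of the 50 cells of 13 mpf. All Adult pools lay below all young pools, whereas the new 4 mpf batch lay among the young ones. Adult minus young was -3.20 on the log2(TPM + 1) scale (SE 0.88, adjusted p = 0.153, limma), a fitted value that depends on the pseudocount because of the pool at 0.

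The most abundant gene of the role, pdia3, which acts on glycoproteins, held 1299, 1403 and 843 TPM in the young pools. It held 736, 529, 636 and 760.0 TPM in the Adolescent pools and 937, 644, 968 and 832 TPM in the Adult pools. Adolescent pools lay below all young pools, while 10 and 13 mpf lay above 45 dpf. By contrast pdia6 and pdia7, further isomerases, reached their highest level of the 11 pools in the new 4 mpf batch (451 and 96.5 TPM).

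In OST, which transfers the glycan to the growing chain, rpn2 was the most abundant gene. Its level was 706, 797 and 739 TPM in the young pools, 501, 560.5, 384 and 537 TPM in the Adolescent pools, and 434, 533, 358 and 403 TPM in the Adult pools. None of these Adolescent and Adult pools reached a young one, though the 4 mpf IF diet pool, at 722 TPM, lay above 1 mpf. The difference was -0.80 in adult against young pools (SE 0.22, adjusted p = 0.149, limma) and -0.60 in adolescent against young pools (SE 0.22, adjusted p = 0.273, limma).

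A further OST subunit, rpn1, kept the stages in another order. It held 396, 409.8 and 311 TPM in the young pools, 171.2, 217, 141.8 and 219 TPM in the Adolescent pools, and 303, 238, 368 and 281 TPM in the Adult pools. The Adult pools lay above all Adolescent ones, and 13 mpf lay among the young ones. For stt3b, a catalytic subunit, the level in the 11 pools was low and uneven, from 4.51 TPM at 13 mpf to 41.3 TPM at 1 mpf.

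Among the TRAP subunits, which sit beside the translocon, ssr2 was the most abundant. It held 1016, 1061 and 1215 TPM in the young pools, 546, 426, 437 and 429 TPM in the Adolescent pools, and 776, 385, 848 and 523 TPM in the Adult pools. All Adolescent and Adult pools lay below the young ones, with 10 and 13 mpf the nearest of them. The difference was -1.26 in adolescent against young pools (SE 0.27, adjusted p = 0.114, limma) and -0.86 in adult against young pools (SE 0.27, adjusted p = 0.202, limma).

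The subunit ssr1 did not share this order. It held 154.3, 134.9 and 254 TPM in the young pools, 63.4, 176.4, 82.2 and 73.6 TPM in the Adolescent pools, and 419, 73, 361 and 162.9 TPM in the Adult pools. Its highest levels were at 10 and 13 mpf, while 12 mpf was among the lowest, so that the Adult pools covered nearly the whole range of the 11 pools.

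The p24 receptor tmed10, which shuttles between ER and Golgi, had levels close to each other within the young and within the Adolescent pools. It held 1099.9, 1058 and 1095 TPM in the young pools, 512, 559, 572 and 522 TPM in the Adolescent pools, and 645, 522, 691 and 397 TPM in the Adult pools. The lowest young pool lay far above the highest later pool. The difference was -0.97 in adult against young pools (SE 0.22, adjusted p = 0.0999, limma) and -1.0 in adolescent against young pools (SE 0.22, adjusted p = 0.114, limma).

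A lower p24 gene, the tmed1 copy ENSDARG00000017255, was among the 3 with the largest negative adult difference. It held 70.6, 87.6 and 48.4 TPM in the young pools, 28.1, 16.5, 22 and 25.7 TPM in the Adolescent pools, and 30.6, 41.1, 17.7 and 46.3 TPM in the Adult pools. No Adolescent or Adult pool reached 45 dpf, though 14 mpf came close to it. The 9 mpf pool, between the stages, lay above 45 dpf at 57.2 TPM. The difference was -1.04 in adult against young pools (SE 0.39, adjusted p = 0.301, limma) and -1.52 in adolescent against young pools (SE 0.39, adjusted p = 0.164, limma). Of the other p24 genes, tmed4 held 21.4 to 54.7 TPM in young, 25.9 to 61.4 TPM in Adolescent and 25.1 to 49.2 TPM in Adult pools, which overlapped throughout.

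Signal peptidase was the most even role among young pools, with sums of 2507, 2514 and 2511 TPM. Its catalytic subunit gene sec11a held 924, 860.4 and 841 TPM in the young pools, 634, 494, 572 and 438 TPM in the Adolescent pools, and 572, 411, 766 and 434 TPM in the Adult pools. All later pools lay below the young ones, with 13 mpf the nearest, and the difference was -0.72 in each contrast (adjusted p = 0.253 for adult and 0.246 for adolescent against young pools, limma). Its partner spcs2 overlapped between stages, from 422 TPM at 13 mpf to 848 TPM at 4 mpf.

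In the translocon, sec61b, the small beta subunit of the channel, held 360.0, 374 and 632 TPM in the young pools, 342, 179.9, 311 and 175.4 TPM in the Adolescent pools, and 312, 235, 301 and 313 TPM in the Adult pools. The later pools lay below the young ones, with 3 mpf just under 1 mpf, and the adult difference of -0.61 (SE 0.30, adjusted p = 0.475, limma) did not pass. The gamma subunit gene sec61g overlapped between stages and reached 449.8 TPM at 10 mpf and 535 TPM at 13 mpf, above every young pool (277 to 315 TPM). The channel gene sec61a1 is present under 2 gene identifiers. Reads of the 2 copies may have been split in counting, so their separate levels are uncertain.

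The SRP gene with the highest level, srp54, whose protein binds the signal peptide, held 168.9, 171.4 and 173.1 TPM in the young pools. It held 73.6, 155.8, 91.5 and 107.4 TPM in the Adolescent pools and 142.2, 124.6, 167.97 and 137.2 TPM in the Adult pools. No Adolescent or Adult pool overlapped the young pools, yet 13 mpf lay just under them. The adult difference of -0.27 (SE 0.28, adjusted p = 0.793, limma) was smaller than its error.

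COPII genes were low and mixed. Sec13, a gene of the outer coat, was the most abundant, at 193, 175.4 and 97.9 TPM in the young pools, 97.3, 45.8, 60.1 and 105.4 TPM in the Adolescent pools, and 168.8, 77.1, 171.3 and 90.3 TPM in the Adult pools. These ranges overlap in each pair of stages.

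The inner coat gene sec23b had the largest adult against adolescent difference of the role. It held 60.1, 68.4 and 51.5 TPM in the young pools, 15.2, 13.0, 20.3 and 12.6 TPM in the Adolescent pools, and 104.5, 26.5, 34.7 and 34.8 TPM in the Adult pools. Adolescent pools lay below all young and Adult pools, and 10 mpf was the highest pool. The difference was 1.46 in adult against adolescent pools (SE 0.40, adjusted p = 0.271, limma) and -1.92 in adolescent against young pools (SE 0.43, adjusted p = 0.116, limma).

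Of the 3 genes with the largest positive adult difference, 2 were sorted under COPII and had small values. The sec22b copy ENSDARG00000030108, a SNARE gene, held 15.6 to 38.7 TPM in young and 13.5 to 65.1 TPM in Adult pools. The outer coat gene sec31b stayed at 0.721 to 6.16 TPM in young and 1.56 to 5.99 TPM in Adult pools. Both genes overlap between the stages, and a second gene also bears the symbol sec22b, so its reads may be shared.

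The third, sec14l8, held 17, 8.0 and 3.54 TPM in the young pools, 12.3, 9.61, 20 and 29.8 TPM in the Adolescent pools, and 89.2, 31.6, 163.9 and 8.12 TPM in the Adult pools. Its Adult pools differed among themselves by far more than the other stages, and 14 mpf lay within the young range. The adult difference was 2.34 (SE 0.82, adjusted p = 0.268, limma).

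In COPI, which retrieves ER residents from the Golgi, cope was the most abundant gene. It held 644, 770.2 and 553 TPM in the young pools, 432, 494, 421 and 363 TPM in the Adolescent pools, and 532, 537, 749.8 and 364 TPM in the Adult pools. Adolescent pools lay below all young pools, and the Adult pools ran from the lowest Adolescent level up to the young range. In 5 of the 7 COPI genes every Adolescent pool lay below every young pool, beside 7.70% of all genes.

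The mean level of a pool can be set by few cells, so the mean over cells of log2(TPM + 1) was also tested, which follows how many cells hold a read. On this scale limma called 33 of the 61 genes lower and 1, sec14l8, higher in adult against young pools, where 31.7% of all genes were lower and 0.522% higher. It called 32 of 61 lower in adolescent against young pools, beside 19.5% of all genes. All genes shifted with them, by a median of -0.59 (adult) and -0.41 (adolescent), beside -1.46 and -1.61 for the 61 genes.

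With every cell thinned to 20000 reads other than ins, an alternative chosen after seeing the data, 20 of the 61 genes fell in adult against young pools (14.3% of all genes were lower) and 26 fell in adolescent against young pools (10.1%). By this measure pdia4 fell by 4.14 on the log2 scale in Adult pools (adjusted p = 0.00490, limma). The thinned cells of a pool held a read of a median of 41, 41 and 37 of the 68 genes in the young pools, 27, 28, 32 and 26 in the Adolescent pools, and 31, 26, 32 and 26 in the Adult pools, beside 48, 49 and 41, then 30, 32, 38.5 and 28, then 34, 29, 35 and 29 without thinning. Thinning dropped 9 of the 1014 cells. Over all genes, thinned cells still held medians of 3254, 3387.5 and 2688 genes in young pools, and 1899 to 2669 in Adolescent and Adult pools. At equal depth both 1 mpf pools thus lay above all later pools, while 45 dpf lay next to the new 4 mpf batch.

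Shares of thinned cells with a read showed the same order for single genes. For pdia4 the share was 79.3%, 80% and 69% in the young pools, 22.9%, 20.5%, 66.7% and 20.7% in the Adolescent pools, and 22.8%, 23.4%, 28.6% and 21.7% in the Adult pools. The new 4 mpf batch lay just below the lowest young pool and far above the other Adolescent pools. For tmed1 (ENSDARG00000017255) it was 43.7% to 47.9% in young, 11.4% to 14.9% in Adolescent and 14.3% to 19.8% in Adult pools. For tmed10 the share was 100% in young, 86.2% to 97.8% in Adolescent and 83.3% to 93.9% in Adult pools.

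The summed counts of the 7 training ages gave a second test, with fewer pools and the reads themselves. In adult (10, 12 and 14 mpf) against adolescent (3, 4 and 6 mpf) pools, edgeR's quasi-likelihood test called 0 of 14199 genes after adjustment (0%). It gave 514 genes, or 3.62%, at an unadjusted p under 0.05 (1.83% lower), among them 4 of the 63 genes tested here, all higher in Adult pools: sec23b at 2.08 (SE 0.55), srp9 of the SRP at 1.34, sec62 of the translocon at 1.02 and copg2 of COPI at 0.80 on the log2 scale. DESeq2 called 0.464% of all genes and 0 of these. The median over the genes tested was 0.17, and without 10 mpf it was -0.045.

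As a trend over the doubling of age from 1 to 14 mpf, edgeR called 0 of 16306 genes (0%), with 705, or 4.32%, at an unadjusted p under 0.05. Of the 65 genes tested here, 5 were among these, all with a negative slope: pdia8 at -0.72 (SE 0.18) and pdia4 at -0.61 (SE 0.16) per doubling of age, srp72, an SRP protein gene, at -0.31, and tmed10 and sec11a at -0.26 each. DESeq2 called 1.42% of all genes and 0 of these. Slopes were negative for 51 of the 65 genes, beside 51.8% of all genes, with a median of -0.13 per doubling, but without the 1 mpf pool the median was 0.011, so the trend rested on the youngest pool.

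Ages that shared a collection date or a plate were compared as single pools, without a replicate check and without a test. On the shared date, 12 mpf lay below 1 mpf for 54 of 61 genes, beside 49.5% of all genes, with a median of -0.75 on the log2(TPM + 1) scale against 0.01 over all genes. Of the 61 genes, 19 lay lower by at least 1, beside 16.6% of all genes, and 1, the sec14l1 copy ENSDARG00000098821, lay higher, beside 18%. On the shared plate, 13 mpf lay below new 1 mpf for 40 of 62 genes, beside 58.5% of all genes, with a median of -0.22 against -0.26 over all genes. Here 12 genes lay lower by at least 1, a share under the 29.7% of all genes, and 2 higher (sec14l8 and ssr1), under the 14.7% of all genes.

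The difference was below 0 on both the date and the plate for 36 of 61 genes, or 59%, beside 35.5% of all 9145 genes compared, and it ran in opposite directions for 21 genes, or 34.4%, beside 42.4% of all genes. Only pdia4, pdia8 and srp68, an SRP protein gene, lay lower by at least 1 on both, or 3 of 61 genes beside 8.09% of all genes. For pdia4 the levels were 47.9 TPM at 12 mpf against 349.6 TPM at 1 mpf on the date, and 76.4 TPM at 13 mpf against 469.7 TPM at new 1 mpf on the plate. The p24 genes lay below 0 in 8 of 8 genes on both. OST lay below 0 in 5 of 5 genes on the date (median -0.73) and in 4 of 5 on the plate (-0.75), and the disulfide isomerases in 6 of 6 on the date and 4 of 6 on the plate, with a median of -0.95 on each. TRAP differed between the settings, with a median of -1.19 on the date and -0.01 on the plate, and so did the translocon, at -0.66 and 0.18.

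**Figure D4:**
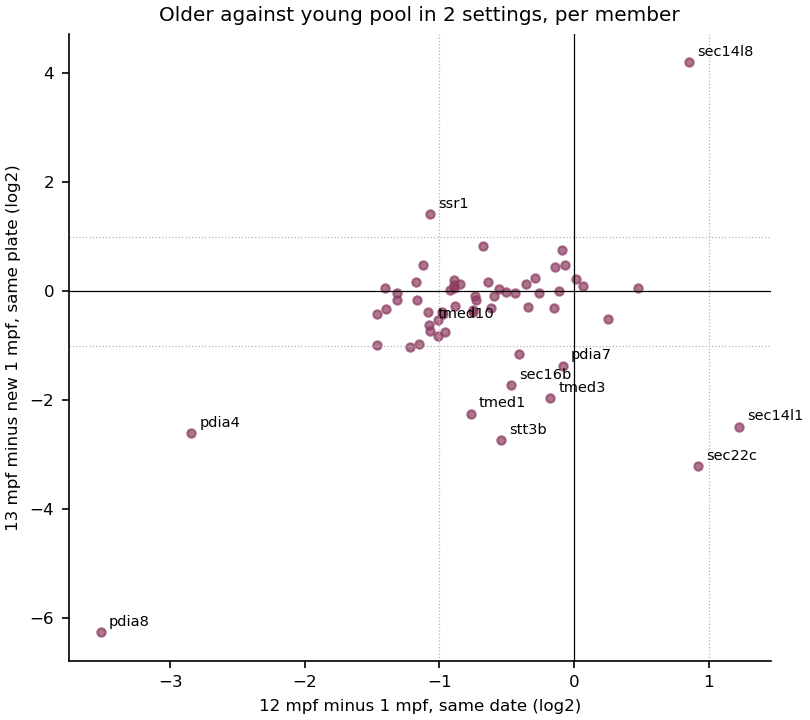
Difference in log2(TPM + 1) of 12 mpf minus 1 mpf on the shared date (horizontal axis) against 13 mpf minus new 1 mpf on the shared plate (vertical axis) for each gene, with dotted lines at a difference of 1. Points gather left of 0 on the date (54 of 61 below 0) but spread about 0 on the plate, and pdia4 and pdia8 lie far below 0 on both.

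Pools of the same age give the size of differences between batches. The new 1 mpf and the 1 mpf pools differed by a median of 0.17 over these genes without regard to sign, on the log2(TPM + 1) scale, against 0.26 over all genes. The new 4 mpf and the 4 mpf pools differed by 0.60 (0.79 over all genes), with 9 of 61 genes at least 1 higher (21.4% of all genes) and 9 at least 1 lower (18.9%) in the new batch. Among the higher ones were pdia8 at 3.30, the sec61a1 copy ENSDARG00000005675 at 2.01 and pdia4 at 1.56. The isomerases were higher in the new batch in 6 of 6 genes, and the COPI genes lower in 7 of 7. Of all genes, 50.3% were lower, and every other role held genes in both directions.

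At 45 dpf the genes stood mostly under 1 mpf, as did genes at large. The difference was below 0 for 45 of 61 genes, or 73.8%, beside 71.9% of all genes, and its median was -0.37 against -0.45. Of the 61, 10 lay lower by at least 1, beside 25.7% of all genes. TRAP ran the other way, with 3 of 4 genes higher at 45 dpf.

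The feeding of the fish was compared between 3TD and IF, again 1 pool each and without a test. The 68 genes took 1.01% of the TPM without ins in 3TD and 1.09% in IF, and their levels differed by a median of -0.32 on the log2(TPM + 1) scale, 3TD minus IF, against -0.13 over all genes. Of 60 genes, 13 lay lower in 3TD by at least 1, beside 25.6% of all genes, and 4 higher, beside 20.4%, so both counts were under the background. The median difference without regard to sign was 0.53, less than the 0.60 between the normally fed batches of the same age. Over all genes the order was the other way, at 0.89 between the diets and 0.79 between the batches.

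Between the diets, OST and COPII were the roles with the lowest medians in 3TD, and signal peptidase had the highest. The OST sum was 1149 TPM in 3TD, against 1744 TPM in IF, with all 5 genes lower in 3TD (median -0.71). The normally fed 4 mpf and new 4 mpf pools held 1153 and 1059 TPM, near the 3TD value. COPII was lower in 3TD for 10 of 12 genes (median -0.82, 305 TPM against 459.8 TPM in IF). Of all genes, 54.6% were lower in 3TD. The 4 mpf and new 4 mpf pools held 355 and 262 TPM of COPII, on either side of the 3TD value. Signal peptidase was higher in 3TD for 3 of 4 genes (median 0.59, 1829 TPM against 1353 TPM in IF). Both diet pools lay below the 4 mpf and new 4 mpf pools, at 2120 and 2000 TPM. The TRAP sums were 1614 TPM in 3TD and 1696 TPM in IF.

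The 3 genes lowest in 3TD were low genes that few cells carried. Sec24c, a cargo-binding COPII gene, stood at 2.56 TPM in 3TD, against 19.3 TPM in IF, from 60 reads in 2 of 35 cells (95% Poisson interval 45.8 to 77.2 reads) against 623 reads in 6 of 43 cells (575 to 674 reads). The interval covers counting error only, and the top cell alone gave 98.1% of the summed TPM in 3TD and 39.1% in IF. Sec31a, of the COPII outer coat, stood at 2.40 TPM from 3 cells in 3TD and at 17.4 TPM from 7 cells in IF. Stt3b of OST stood at 14.0 TPM from 5 cells in 3TD and at 56.9 TPM from 14 cells in IF.

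Of the 3 genes highest in 3TD, 1 rested on a single cell in each pool. Sec31b stood at 5.22 TPM in 3TD and 0.455 TPM in IF, with a read in 1 cell of each pool. Tmed4 held 44.3 TPM in 3TD (10 of 35 cells with a read) and 15.3 TPM in IF (6 of 43), and the normally fed 4 mpf pools held 44.6 and 61.4 TPM. The sec61a1 copy ENSDARG00000021669 held 59.4 TPM in 3TD (10 of 35 cells) and 23.3 TPM in IF (4 of 43), beside 92.8 and 159.4 TPM in the 4 mpf and new 4 mpf pools. For pdia4, the level was 33.4 TPM in 3TD and 101.4 TPM in IF, beside 39 and 116.7 TPM in the normally fed 4 mpf and new 4 mpf pools, which differed as widely.

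**Figure D5:**
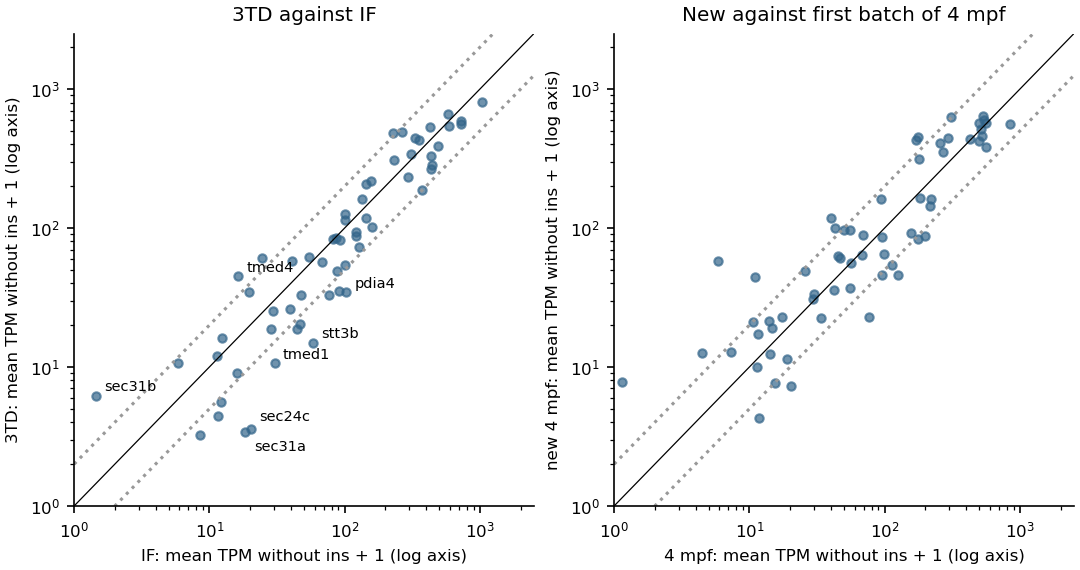
Mean TPM without ins + 1 of each gene on log axes, 3TD against IF on the left and the new against the first 4 mpf batch on the right, with a solid line of equal levels and dotted lines at a log2 difference of 1. The median distance from the solid line is 0.53 on the left and 0.60 on the right (0.89 and 0.79 over all genes), and 13 genes lie below the lower dotted line in 3TD.

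Other genes of the secretory pathway were read from a list of 61 names, of which 53 genes were found and tested. In adult against young pools limma called none of them after adjustment, gave 15 lower and 0 higher at an unadjusted p under 0.05 (6.49% of all genes lower) and had a median difference of -0.45. In these 53 genes every Adult pool lay below every young pool for 9 and above for 2, beside 5.29% and 5.4% of all genes. In adolescent against young pools 21 were lower at an unadjusted p under 0.05 (6.81% of all genes), and 19 of the 53 had all Adolescent pools below all young pools (7.70%).

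Among them were ER chaperones that lay far apart between the stages. Hspa5, the main Hsp70 chaperone of the ER, held 4836, 6424 and 1760.5 TPM in the young pools, 791, 245, 1283 and 857 TPM in the Adolescent pools, and 1592, 405, 881 and 361 TPM in the Adult pools. Hsp90b1, the Hsp90 of the ER, held 1675, 2083 and 875 TPM in the young pools, 299.5, 64, 449 and 219.7 TPM in the Adolescent pools, and 479, 223, 575 and 239 TPM in the Adult pools. Neither gene overlapped between young and later pools. The adult difference for hspa5 was -2.49 (SE 0.61, adjusted p = 0.119, limma), and hsp90b1 was at -2.79 in adolescent against young pools (adjusted p = 0.0995, limma), so both missed the threshold. The small GTPase gene arf4b of Golgi traffic was high in both 1 mpf pools. It held 221 and 635 TPM at 1 mpf and new 1 mpf, but 1.33 TPM at 45 dpf, and 0 to 7.80 TPM in the 8 Adolescent and Adult pools. The 45 dpf pool thus stood with the later pools for this gene. The gene p4hb, a disulfide isomerase outside the symbol rule, lay the other way, with every Adult pool (30.7 to 58.8 TPM) above every young pool (14.9 to 25.9 TPM).

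Across the 11 pools, the 1 mpf and new 1 mpf pools, which held many of the highest levels, also had the most genes per cell and the lowest median share of ins. The part of these measures in the differences was not tested beyond thinning and the scale without ins. For pools with no shared date or plate, age and batch cannot be told apart.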

How the data were processed

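The authors trimmed reads with Trim Galore, aligned them to GRCz10 with HISAT2 and counted them per gene with HTSeq; versions are not given in the sources used here. They deposited these counts, not normalized, for the 637 cells of the 7 training ages (1, 3, 4, 6, 10, 12 and 14 mpf). They also deposited TPM for all 1014 cells, which correct the counts for the length of each gene and sum to 1000000 in every cell, and the cohorts and diets have TPM only. Gene symbols came from a table of names, which matched 26108 of the 31916 genes. The 45 dpf and C1 columns carry library numbers, and those of the new 4 mpf batch repeat names of training cells with other values, so these were tied to their pools by the title of the table. No columns were identical.

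The TPM of each cell were rescaled to 1000000 without ins and averaged over the cells of a pool. Stages were compared with limma 3.58.1 (trend, R 4.3.3) on log2(TPM + 1), 3 young, 4 Adolescent and 4 Adult pools in 1 fit, for genes with at least 5 TPM in at least 3 pools, with Benjamini-Hochberg adjustment over all genes tested and a threshold of 0.05, two-sided. On counts summed per training pool, edgeR 4.0.16 (quasi-likelihood, TMM, filterByExpr) was used, with DESeq2 1.42.0 as the alternative. Contrasts of 1 pool against 1 carry no test: genes with at least 5 TPM in either pool were compared and named when past 1 on the log2 scale. For the alternative with edgeR, gene lengths from the training cells turned the TPM of the other cells into reads, of which 100% came out whole within 0.02. P-values measure the spread between pools, and the number of cells per pool, as few as 30 in the main fit, limits their precision. Poisson intervals cover counting error only. The scripts were tested on simulated data with 200 changed genes. Limma recovered 41% of them at a log2 change of 2 in adult against young pools. On counts, edgeR recovered 53.5% at a log2 change of 3 in adult against adolescent pools. A gene that did not pass may therefore still differ.

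Members and gene lists were chosen with earlier results of these data known. Genes are named with values when they have the highest level of their role, pass a test (up to 12 per comparison), or are among the 3 with the largest difference in each direction in adult against young pools or in 3TD against IF. Others named here were chosen after their values were seen. Young pools combine the Juvenile age with 45 dpf, a grouping made here. Thinning to 20000 reads and leaving out cells with over 10000 TPM of gcga and sst2 were added after seeing the data, as was a limma fit of 4 pools with the shared date and the shared plate as blocks. Python 3.11.15, numpy 2.4.6, pandas 2.3.3 and scipy 1.17.1 were used.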

Additional observations from a re-analysis of the deposited data

Results flagged for a closer look

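Among groups of 4 pools, 2 of the genes named above had 1 pool far from the other 3 by Dixon's test, which chance gives in about 1 in 20 groups. For sec61b the 12 mpf pool, at 235 TPM, lay below the other Adult pools (312, 301 and 313 TPM). For ssr2 the 3 mpf pool, at 546 TPM, lay above the other Adolescent pools (426, 437 and 429 TPM).

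Sec14l1 and ssr1 went opposite ways on the shared plate and the shared date, which was not tested. The sec14l1 copy ENSDARG00000098821 differed by -2.48 on the log2(TPM + 1) scale between 13 mpf and new 1 mpf on the plate and by 1.22 between 12 mpf and 1 mpf on the date. The TRAP gene ssr1 differed by 1.41 on the plate and by -1.07 on the date.

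The C1 chip cells of 3 mpf, which entered the stage comparisons in 1 alternative only, held 506 TPM of the p24 gene tmed3, against at most 95.7 TPM in the 11 normally fed plate pools. They also held 43.7 TPM of the COPII gene sec24a, against at most 17.2 TPM. Both are means over 13 cells of 1 chip.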

How the results depend on the processing

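No paired analysis was possible because the replicate numbers in the labels count cells. The shared date and the shared plate, taken as blocks in 4 pools after seeing the data, gave 0.399% of genes, 1 of the 61 (pdia4) and a median of -0.46 in adult against young pools (all genes -0.18). For adult against young pools, limma called 0.171% of genes (18) and 0 of the 61, with a median of -0.41. The percentage of genes called was 0.304% (and 1 of the 61) with a pseudocount of 10, 0.185% (44 genes) without the filter, 1.85% (5 of 58, median -0.88) with ins kept, 32.3% (34, median -1.46) on the mean over cells of log2(TPM + 1), 14.7% (20, median -1.42) after thinning, 0.0311% with the training pools only, 0.101% with 9 mpf and C1 added, 0.0728% with the batches of 3 and 6 mpf apart and 0.0371% with edgeR on recovered reads. TMM scaling, or leaving out the cells rich in gcga and sst2, added a call of pdia4. For adolescent against young pools, 0% became 0.0664% (pseudocount 10), 0.0630% (no filter), 0.0146% (ins kept, median -1.10 in place of -0.70), 19.8% (mean over cells, 32 of the 61, median -1.61), 10.4% (thinned, 26 of the 61, median -1.60), 0.00949% (cells under 100000 reads left out), 0.0458% (9 mpf and C1 added) and 0.137% (batches apart). EdgeR on recovered reads called 0.00618% in adult against adolescent pools. On counts, DESeq2 called 0.464% of genes between Adult and Adolescent pools and 1.42% over age, in place of 0%. With ins kept, the median of all genes in adult against young pools was -0.58, beside which the -0.88 stands.

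For 12 against 1 mpf, the 19 genes lower and 1 higher became 44 and 0 with ins kept (median -1.40, all genes -0.64, 34.4% of all genes lower) and 49 and 0 on the mean over cells (-2.03, all genes -0.62, 34.6% lower). For 13 against new 1 mpf, the 12 lower became 26 with 1 higher (ins kept, -0.88, all genes -0.83, 43.7% lower) and 36 (mean over cells, -1.14, all genes -0.93, 47.3% lower). For 3TD against IF, the 13 lower and 4 higher became 6 lower (pseudocount 10, 12.2% of all genes), 23 and 0 (ins kept, -0.84, all genes -0.60, 36.4% lower) and 3 and 12 (mean over cells, 2.81% and 8.40% of all genes), where the median turned to 0.19 and that of all genes to 0.13.

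Leaving out 1 pool at a time gave 0.00967% to 0.759% of genes, 0 to 1 of the 61 (pdia4, without 45 dpf or without the new 4 mpf batch) and medians of -0.53 to -0.28 in adult against young pools. It gave 0% to 0.192% of genes, 0 to 1 of the 61 (pdia4, without the same pools) and medians of -0.74 to -0.65 in adolescent against young pools. Adult against adolescent pools gave 0% to 0.331% (0.331% without 12 mpf), 0 of the 61 and medians of 0.20 to 0.39. On counts, adult against adolescent pools gave 0% with medians of -0.045 (without 10 mpf) to 0.28, and the trend 0% to 0.00629% with medians of -0.16 to 0.011 (without 1 mpf).

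Of the named genes, sec22b (ENSDARG00000030108, 0.34) turned to -0.26 (ins kept), -1.08 (mean over cells), -0.25 (thinned), -0.10 (training pools) and -0.67 (blocks), with a range of -0.070 (without 45 dpf) to 0.79 when 1 pool was left out. Sec31b turned to -0.16 on the mean over cells, and sec24c to 0.21 with the blocks. Sec31a (-0.16) ranged from -0.61 to 0.15, above 0 without 1 mpf, new 1 mpf or 14 mpf, and tmed4 (-0.07) from -0.49 to 0.17, above 0 without 1 mpf, new 1 mpf or 12 mpf, and stood at 0.053 with 9 mpf and C1 added. The causes were not tested. The other genes named for the highest level of their role or for the largest differences kept their direction in adult against young pools. Genes chosen after their values were seen are not covered by this statement.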
